A study of Mus musculus with 26 samples.

Results

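The 10 core clock genes Arntl, Clock, Per1, Per2, Per3, Cry1, Cry2, Nr1d1, Nr1d2 and Dbp were followed in RNA sequencing of mouse spleen. They were taken from the deposited gene table by gene name, which gave 10 of 56392 genes, and all 26 libraries were used. The mice were female BALB/c animals aged 8 weeks, with 20 mice per group. Every group was injected into the peritoneum on days 1, 3 and 5. The saline group (code CT, 5 libraries) received normal saline. The OVA group received ovalbumin, a protein of egg white that serves as a model allergen, in a dose of 0.05 mg per day, and carries the codes OS (6 libraries) and ON (5 libraries). The mimic group received the same OVA injections and, on day 3, 7 mg per kg body weight of a miR-676-3P mimic (a synthetic form of that microRNA) into the tail vein, and carries the codes MM and MN (5 libraries each). The labels define none of the 5 codes, so the codes were compared as they stand. Whether libraries come from separate mice is not stated, and p-values measure at most the spread between these libraries. They give no hour of the day at which spleens were taken, and time of day and treatment cannot be told apart in these data.

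The mammalian clock is a transcriptional feedback loop. ARNTL (also called BMAL1) and CLOCK, the positive limb, bind E-box sequences and activate the Per, Cry, Nr1d and Dbp genes. PER and CRY proteins then repress ARNTL and CLOCK, REV-ERB proteins (Nr1d1 and Nr1d2) repress Arntl, and DBP activates genes through D-box sequences. In peripheral tissues of the mouse, spleen included, Arntl peaks at a time of day when Nr1d1, Dbp and the Per genes are low, so levels in samples from different hours move in opposite directions across the loop. Per1 is in addition an immediate response gene, induced through CREB and through the glucocorticoid receptor.

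Promoter windows from 250 bases before to 50 bases after the start site were read from RefSeq on GRCm38.p6, and 9 of the 10 members had one, 13 windows in all. A window is printed for Per1, the only member that passed the test below, for Arntl, whose relation to the REV-ERB genes is tested below, and for Per3. In these windows Per3 was the only member with a match to the D-box as searched, a sequence that DBP binds. Per2 had no window to search, and sites outside the windows or with other letters were not looked for. Capitals mark an E-box or a half-site in Per1, a half-site in Arntl and both D-boxes in Per3, each printed 5′ to 3′ on the gene's strand.
Per1, chr11:69098699-69098998, + strand: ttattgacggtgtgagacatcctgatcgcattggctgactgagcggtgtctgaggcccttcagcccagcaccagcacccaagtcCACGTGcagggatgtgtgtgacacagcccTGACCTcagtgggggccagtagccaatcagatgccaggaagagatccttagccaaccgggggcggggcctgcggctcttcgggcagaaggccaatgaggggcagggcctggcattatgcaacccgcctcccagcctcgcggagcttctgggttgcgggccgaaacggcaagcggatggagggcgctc
Arntl, chr7:113207261-113207560, + strand: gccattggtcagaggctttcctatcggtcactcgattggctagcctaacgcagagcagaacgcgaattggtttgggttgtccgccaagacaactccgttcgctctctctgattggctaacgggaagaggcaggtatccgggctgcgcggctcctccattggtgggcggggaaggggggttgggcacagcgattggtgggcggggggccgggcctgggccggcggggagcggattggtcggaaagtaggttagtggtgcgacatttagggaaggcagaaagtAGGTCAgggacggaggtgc
Per3, chr4:151044616-151044915, - strand: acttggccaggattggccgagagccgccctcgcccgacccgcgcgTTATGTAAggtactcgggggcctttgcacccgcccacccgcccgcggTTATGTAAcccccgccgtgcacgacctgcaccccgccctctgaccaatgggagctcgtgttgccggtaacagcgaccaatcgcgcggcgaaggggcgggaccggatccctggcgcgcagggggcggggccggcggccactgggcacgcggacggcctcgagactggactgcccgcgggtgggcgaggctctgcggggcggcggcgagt
The E-box searched was CACGTG, present in 2 of 9 members (Per1 and Cry1). By window it was in 2 of the members' 13 and in 7.15% of all 32851. It starts 166 bases before the start site in Per1. The D-box was TTANGTAA, read on both strands, present in 1 of 9 members, 1 of their 13 windows and 2.32% of all windows. In Per3 it starts 205 and 158 bases before the start site. The half-site AGGTCA bound by REV-ERB and ROR receptors, read on both strands, was present in 4 of 9 members (Arntl, Clock, Per1 and Nr1d2). By window it was in 4 of the members' 13 and in 16.3% of all windows. In Arntl it starts 32 bases after the start site, and in Per1 it lies on the reverse strand 137 bases before it. The cAMP response element TGACGTCA, bound by CREB, was in 0 of 9 members, 0 of their 13 windows and 1.79% of all windows. The motifs as searched do not overlap each other in these windows, and a match describes letters, not binding.

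All 10 members were above 1 FPKM in every library, so none was lost to the filter on low values. FPKM are fragments scaled to gene length and to a library size, so that genes can be compared per length. That size was 0.712 to 1.12 times the reads recovered from the FPKM, by library. The order by mean FPKM over 26 libraries was Per1 at 25.3 ± 13.6 (SD), Nr1d2 at 13.2 ± 2.29, Dbp at 8.43 ± 2.57, Nr1d1 at 5.51 ± 1.39 and Cry1 at 5.25 ± 0.85. Lower came Clock at 3.35 ± 0.56, Per2 at 3.34 ± 0.68, Cry2 at 2.99 ± 0.45, Per3 at 2.60 ± 0.50 and Arntl at 2.23 ± 0.36. Arntl was thus the lowest of the set and Clock the sixth. The ranges of all neighbours in this order overlapped. Library by library, Nr1d2 exceeded Dbp in 26 of 26 and Cry1 exceeded Clock in 25 of 26, whereas Nr1d1 exceeded Cry1 in 15 and Clock exceeded Per2 in 11. Per1 varied most, with a standard deviation of 53.9% of its mean and a range of 7.47-fold. The coefficient of variation was 30.5% for Dbp, 25.3% for Nr1d1 and 15.1% to 20.4% for the other 7.

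The libraries held 14224832 to 18113989 reads recovered from the FPKM, and the members had medians of 274 (Arntl) to 1960 (Per1) reads per library. All 5 B cell and all 5 T cell markers were above 0 in every library. Pancreas genes, from an organ beside the spleen, reached 18.0% of the reads of library ON 2, 9.07% of MM 2 and 2.76% of ON 3, but no more than 0.003% elsewhere. CT 4 stood apart by mitochondrial genes, at 6.62% of reads against 1.26% to 2.39% in the other libraries. Results that rest on these 4 libraries are given with and without them. The spleen is a mixture, so fewer cells of a type and less RNA per cell cannot be told apart.

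**Figure D1:**
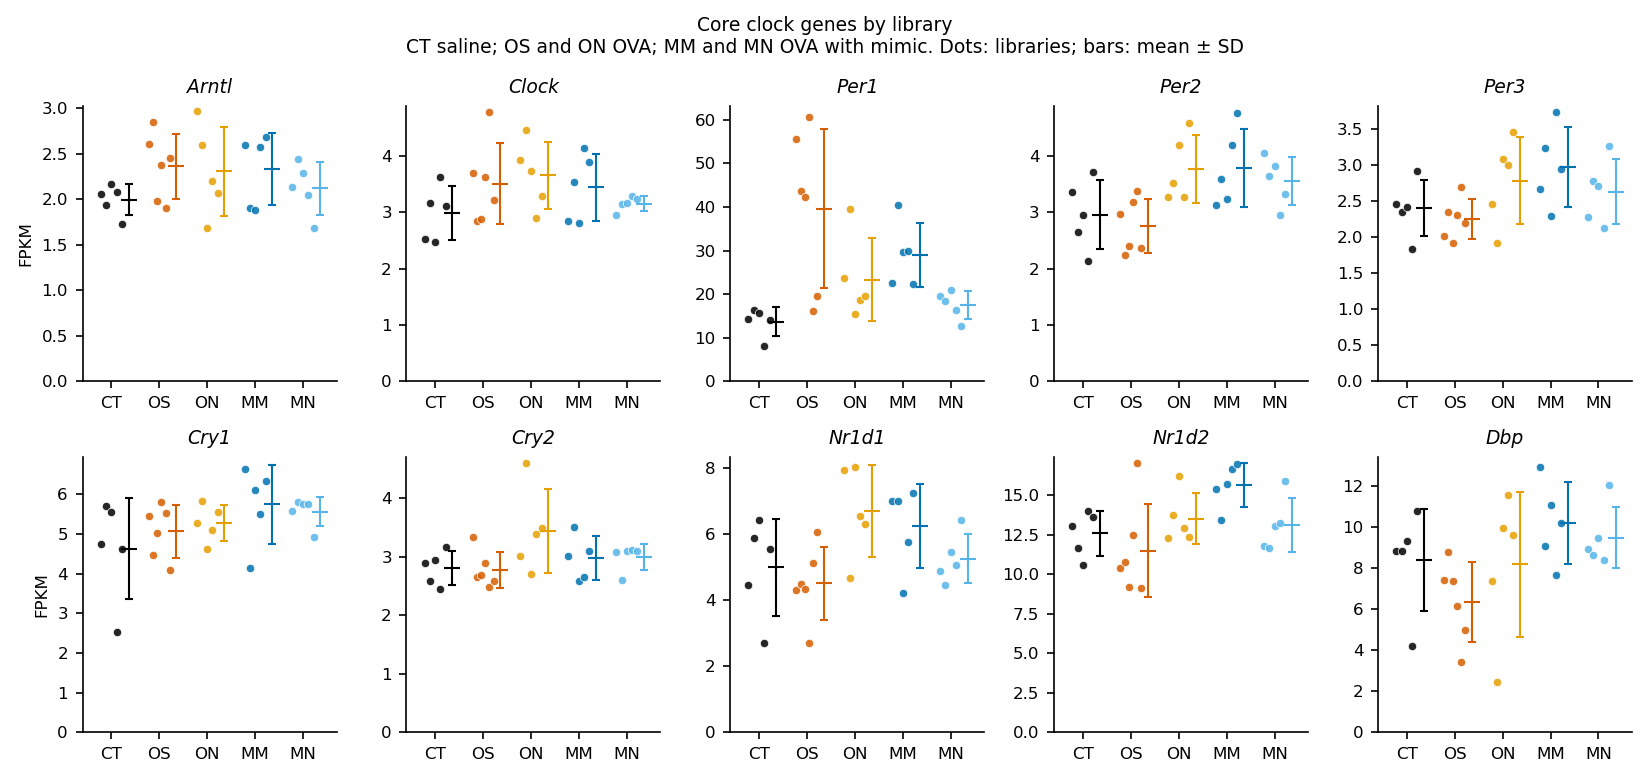
FPKM of the 10 core clock genes in each of 26 libraries, by code; dots are libraries and bars the mean ± SD, on linear axes from 0. Per1 reached 42.2 to 60.7 in 4 OS libraries, above all 5 saline libraries, while the code ranges of the other 9 genes overlapped.

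Across the whole table, limma on log2(FPKM + 1) with an adjusted p under 0.05 called 340 of 15672 genes between OVA (the mean of OS and ON) and saline, which is 2.17%. Of the members, 1 of 10 passed in that comparison, Per1, which was higher. In OVA with mimic (the mean of MM and MN) against saline 0 genes passed, or 0%, although 1053 had an unadjusted p under 0.05, and limma voom on recovered reads called 0 as well. Of the members 0 passed, and 3 (Cry1, Per1 and Per2) had an unadjusted p under 0.05. In OVA with mimic against OVA the call rate was likewise 0%, where voom called 0 and limma gave 1590 genes an unadjusted p under 0.05. Here too 0 members passed, and 2 (Dbp and Nr1d2) had an unadjusted p under 0.05. The median log2 difference of the 10 members was 0.12 for OVA, 0.18 for OVA with mimic and 0.08 for OVA with mimic against OVA, beside 0.01, 0.01 and 0.00 over all genes tested.

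By code, OS against saline called 2.99% of genes and 1 member, again Per1. ON against saline called 0.51% of genes (80, with voom 65), MM against saline 0.3% (47, with voom 52) and MN against saline 0% (0, with voom 0). In these 3 comparisons limma and voom each called 0 of 10 members. In limma 4, 4 and 0 members had an unadjusted p under 0.05, beside 2136, 1532 and 451 of all 15672 genes. OS against ON called 0.185% and MM against MN 0.172% of genes, with 0 members by either tool. In limma 4 and 1 members had an unadjusted p under 0.05 there, beside 1658 and 1137 of all genes. The F test over the 5 codes called 2.17% of genes and 1 member, Per1. These comparisons share the saline or the OVA libraries and are not independent of each other.

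Arntl encodes the limiting activator of the loop (ENSMUSG00000055116, chromosome 7, 112806672 to 112913333, + strand on the build of the deposited table, which the sources used here do not name). Its FPKM were 2.06, 1.94, 2.17, 2.08 and 1.73 in saline, and 1.91 at the lowest, 2.42 at the median and 2.85 at the highest in OS. They were 2.97, 2.60, 1.69, 2.21 and 2.07 in ON. They were 2.60, 1.91, 1.89, 2.58 and 2.69 in MM and 2.13, 2.45, 2.29, 2.05 and 1.68 in MN. The ranges of all 5 codes overlapped, while 4 of 6 libraries of OS, 3 of 5 in both ON and MM, and 2 of 5 in MN lay above the highest saline library. The highest library, ON 1, carried 1.77 times the level of the lowest, MN 5. The comparison with the smallest p was OVA against saline, with a log2 difference of 0.15 ± 0.09 (SE, limma adjusted p = 0.468).

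Clock encodes the DNA-binding partner of ARNTL (ENSMUSG00000029238, chromosome 5, 76357715 to 76452639, - strand). Its FPKM were 2.53, 3.16, 2.48, 3.62 and 3.11 in saline, and from 2.85 to 4.78 in OS. They were 3.92, 4.45, 3.73, 2.89 and 3.29 in ON. They were 2.85, 3.53, 2.80, 4.14 and 3.88 in MM and 2.95, 3.14, 3.16, 3.29 and 3.23 in MN. The 2 highest were OS 5 and ON 2, and MN was the tightest code, with an SD of 0.129. The smallest p was again that of OVA against saline, at 0.20 ± 0.10 (limma adjusted p = 0.320). Over the 26 libraries Clock was lower where ribosomal protein genes took more reads (r = -0.71, a description over libraries that share depth and composition), and whether that share plays a part was not tested.

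Per1, whose protein feeds back on ARNTL and CLOCK, was the member that moved (ENSMUSG00000020893, chromosome 11, 68986043 to 69000786, + strand). Its FPKM were 14.3, 16.4, 15.6, 8.13 and 14.1 in saline. In OS they were 55.5, 43.8, 42.2, 60.7, 16.2 and 19.5. In ON they were 23.7, 39.5, 15.4, 18.6 and 19.6. OS 1 to OS 4 stood at or above 42.2, higher than every other library in the series, while OS 5 lay within the saline range and OS 6 just above it. In MM the FPKM were 22.7, 40.4, 29.7, 29.9 and 22.2, and in MN 19.6, 18.4, 21.0, 16.5 and 12.7. MM did not overlap with saline or with MN, and these were the only non-overlapping code pairs of any member. Of all 15672 genes, 2% did not overlap between MM and saline and 3.93% between MM and MN, in either direction. Over the 10 pairs of codes, 2 of 100 pairs of a member and 2.9% of those of all genes did not overlap, so the members' share is near that of all genes. Per1 passed the test in neither pair.

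Mean FPKM of Per1 was 13.7 ± 3.27 (SD, n = 5) in saline, 39.7 ± 18.3 (n = 6) in OS, 29.0 ± 7.38 (n = 5) in MM, 23.4 ± 9.50 (n = 5) in ON and 17.6 ± 3.22 (n = 5) in MN. Per1 rose in OS by a log2 difference of 1.35 ± 0.29 over saline (SE, limma adjusted p = 0.0101). It rose in OVA as a whole by 1.02 ± 0.26 (limma adjusted p = 0.0367), and it differed over the 5 codes (limma adjusted p = 0.0431, range of code means 1.35). The difference was 1.03 ± 0.30 in MM (limma adjusted p = 0.166), 0.69 ± 0.30 in ON (0.302) and 0.36 ± 0.30 in MN (0.910), none of which passed. Whether codes differ in the size of the change was tested directly: OS exceeded ON by 0.66 ± 0.29 (limma adjusted p = 0.407) and MM exceeded MN by 0.67 ± 0.30 (0.610), and neither passed. OVA with mimic against OVA gave -0.32 ± 0.21 (0.595).

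The OS call held when each of the 26 libraries was left out in turn (1.18 to 1.57, limma adjusted p from 0.00134 to 0.0312). It held without the 4 libraries that stand apart (1.18 ± 0.27, limma adjusted p = 0.0153), and ended only when the fit was limited to the OS and saline libraries (0.111). The OVA call held in 17 of 26 such fits and ended without any one of CT 1 to CT 5, OS 1, OS 2, ON 1 or ON 2 (0.86 to 1.13, limma adjusted p from 0.0107 to 0.0888). Without the 4 libraries it was 0.80 ± 0.26 (limma adjusted p = 0.159). The difference over the 5 codes held in 5 of 26 leave-one-out fits. Over the 26 libraries Per1 was lower where erythroid markers were higher (r = -0.54, within codes -0.42). So were Clock (-0.57), Arntl (-0.51) and Cry1 (-0.50), while the other members had r from -0.33 (Cry2) to 0.28 (Dbp). The r of Per1 with B cell markers was -0.04 and with neutrophil markers 0.11. All 5 erythroid markers were present in every library, with a summed FPKM of 20294 to 43598 in saline and 11063 to 30614 in OS, and their part in the result was not tested.

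**Figure D2:**
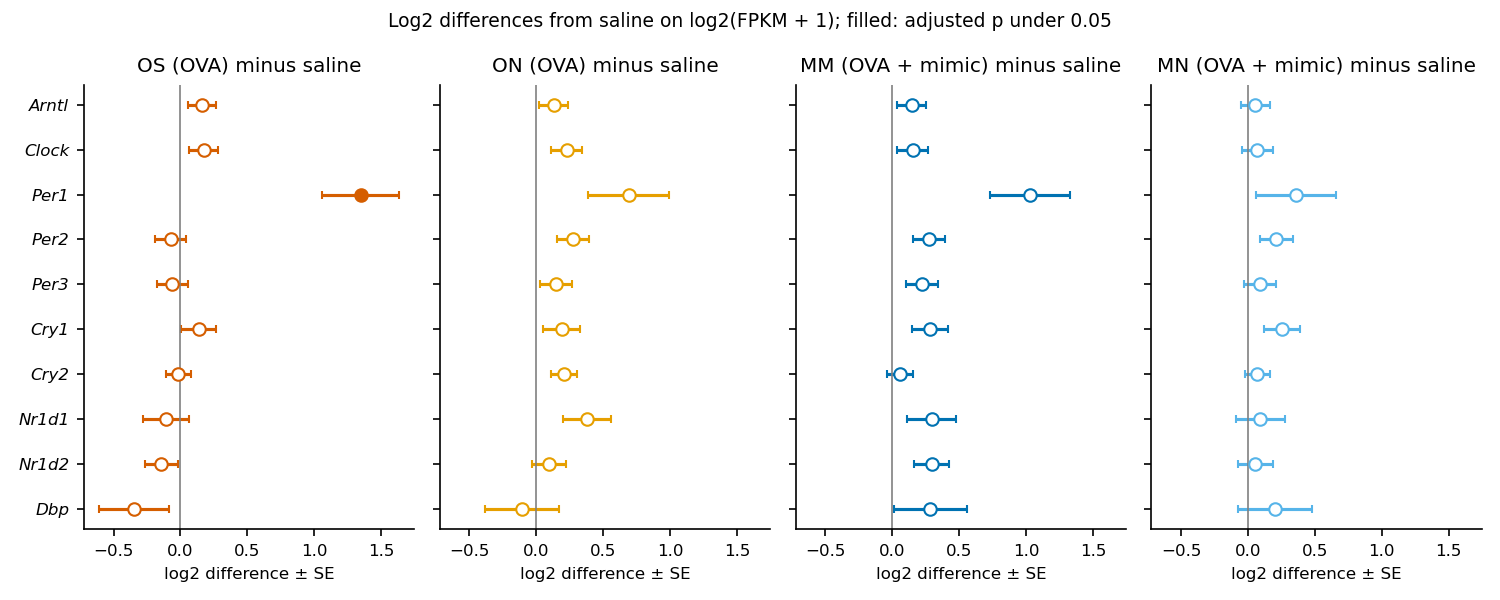
Log2 difference from saline on log2(FPKM + 1) for the 10 members in each of the 4 injected codes, with its standard error from limma; filled points have an adjusted p under 0.05. Per1 in OS, at 1.35, is the only filled point, and the other 9 genes lie between -0.35 and 0.38 in all 4 panels.

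Per2 and Per3, the other period genes, passed in no comparison. Per2 (ENSMUSG00000055866, chromosome 1, 91343704 to 91387046, - strand) had FPKM of 2.13 to 3.71 in saline, 2.24 to 3.38 in OS, 3.26 to 4.58 in ON, 3.12 to 4.76 in MM and 2.95 to 4.04 in MN. Its smallest p was in OS against ON, at -0.34 ± 0.12 (limma adjusted p = 0.246). Of the 6 OS libraries only OS 5 reached the ON range. Per3 (ENSMUSG00000028957, chromosome 4, 151088109 to 151129122, - strand), which has a more limited role in rhythm generation than its paralogs in mouse, ran from 1.83 to 3.74 over all libraries, and its smallest p was in MM against saline, at 0.22 ± 0.12 (0.567). It lies on the same strand as part of Camta1, and the sources used here do not say how reads of overlapping genes were assigned. The log2 ratio of Per1 over Per2 FPKM averaged 2.20 ± 0.31 (SD) in saline, 3.70 ± 0.85 in OS, 2.92 ± 0.47 in MM, 2.57 ± 0.64 in ON and 2.30 ± 0.22 in MN.

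The cryptochromes, which are the stronger repressors of ARNTL and CLOCK, passed in no comparison either. Cry1 (ENSMUSG00000020038, chromosome 10, 84967564 to 85020928, - strand) ran from 2.53 in CT 4 to 6.65 in MM 1, and the second lowest library was OS 6 at 4.10. Its smallest p was in OVA with mimic against saline, at 0.27 ± 0.12 (limma adjusted p = 0.732). Cry1 was lower where mitochondrial genes took more reads (r = -0.65 over 26 libraries), and CT 4 is the library with the highest share. Cry2 (ENSMUSG00000068742, chromosome 2, 92233991 to 92264388, - strand) ran from 2.46 in CT 4 to 4.61 in ON 2, the library with most pancreas reads, with a smallest p in OS against ON, at -0.22 ± 0.09 (limma adjusted p = 0.376). Whether the mitochondrial or pancreas share plays a part in these extremes was not tested.

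Nr1d1 encodes REV-ERBα, the heme-binding repressor of Arntl (ENSMUSG00000020889, chromosome 11, 98658758 to 98666159, - strand). Its FPKM were 4.45, 5.88, 6.42, 2.72 and 5.54 in saline, and 2.71 at the lowest, 4.42 at the median and 6.06 at the highest in OS. They were 7.93, 4.67, 8.05, 6.56 and 6.31 in ON. They were 7.01, 7.02, 4.23, 5.76 and 7.26 in MM and 4.88, 4.45, 5.47, 5.08 and 6.42 in MN. The lowest libraries were OS 4 and CT 4, and 4 of 5 ON libraries lay above all OS libraries. OS against ON gave -0.49 ± 0.17, which did not pass over all genes (limma adjusted p = 0.281). Nr1d1 lies opposite Thra, which had a median of 387 reads against 277.5 for Nr1d1, and since use of strand in counting is not stated, reads from the shared stretch cannot be told apart.

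Nr1d2 encodes REV-ERBβ, which acts beside REV-ERBα (ENSMUSG00000021775, chromosome 14, 4230569 to 4265642, + strand). Its FPKM ran from 10.6 to 14.0 in saline, 9.14 to 17.0 in OS, 12.3 to 16.2 in ON, 13.4 to 17.0 in MM and 11.6 to 15.9 in MN. MM had the highest mean, 15.6 ± 1.39 against 12.6 ± 1.41 in saline, with overlap, and the difference was 0.30 ± 0.13 (limma adjusted p = 0.444). Across libraries it had r = 0.22 with Nr1d1 (rho = 0.25, permutation adjusted p = 0.531 and 0.433), 0.33 without CT 4 and OS 4.

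Dbp encodes a PAR bZIP activator and is a direct E-box target of ARNTL and CLOCK (ENSMUSG00000059824, chromosome 7, 45354512 to 45359627, + strand). Its FPKM were 8.82, 8.83, 9.30, 4.19 and 10.8 in saline, and from 3.42 to 8.80 with a median of 6.75 in OS. They were 7.36, 2.43, 9.95, 11.5 and 9.62 in ON. They were 12.9, 9.05, 11.1, 7.65 and 10.2 in MM and 8.93, 8.61, 9.44, 8.36 and 12.1 in MN. The 4 lowest libraries were ON 2, OS 5, CT 4 and OS 6, from 3 codes. OVA with mimic against OVA had the smallest p, at 0.47 ± 0.19 (limma adjusted p = 0.406). Over the 26 libraries Dbp was higher where B cell markers (r = 0.59) and T cell markers (r = 0.56) were higher, and their part was not tested. Dbp lies opposite Sphk2, with a median of 636 reads against 441.5 for Dbp.

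The phase relation of the limbs was examined over the 45 pairs of members. Pearson r and Spearman rho were taken on log2(FPKM + 1) over 26 libraries, with p from 100000 permutations (two-sided) adjusted over the 45 pairs. All values of a pair come from the same libraries, and the libraries differ in depth and composition. Of 16 pairs across the limbs, 9 had r above 0 and 7 below, with a median r of 0.07. Of these pairs 1 passed, below 0. Arntl and Nr1d1, the pair with the most direct repression, had r = -0.02 (rho = -0.02, permutation adjusted p = 0.947 and 0.971), and r = -0.12 without OS 2 and ON 1, the libraries farthest from the Arntl median. Within codes it was -0.09. The value turned to 0.14 without the 4 libraries that stand apart, so no direction is given. Arntl and Nr1d2, the other REV-ERB gene, had r = -0.23 (rho = -0.30, permutation adjusted p = 0.524 and 0.357) and did not pass. That r was -0.35 within codes (0.469), -0.17 without the 4 libraries and -0.34 to -0.16 with single libraries left out. Arntl and Dbp had r = -0.21 (rho = -0.31, permutation adjusted p = 0.537 and 0.357), -0.25 without OS 2 and ON 1 and -0.18 within codes.

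**Figure D3:**
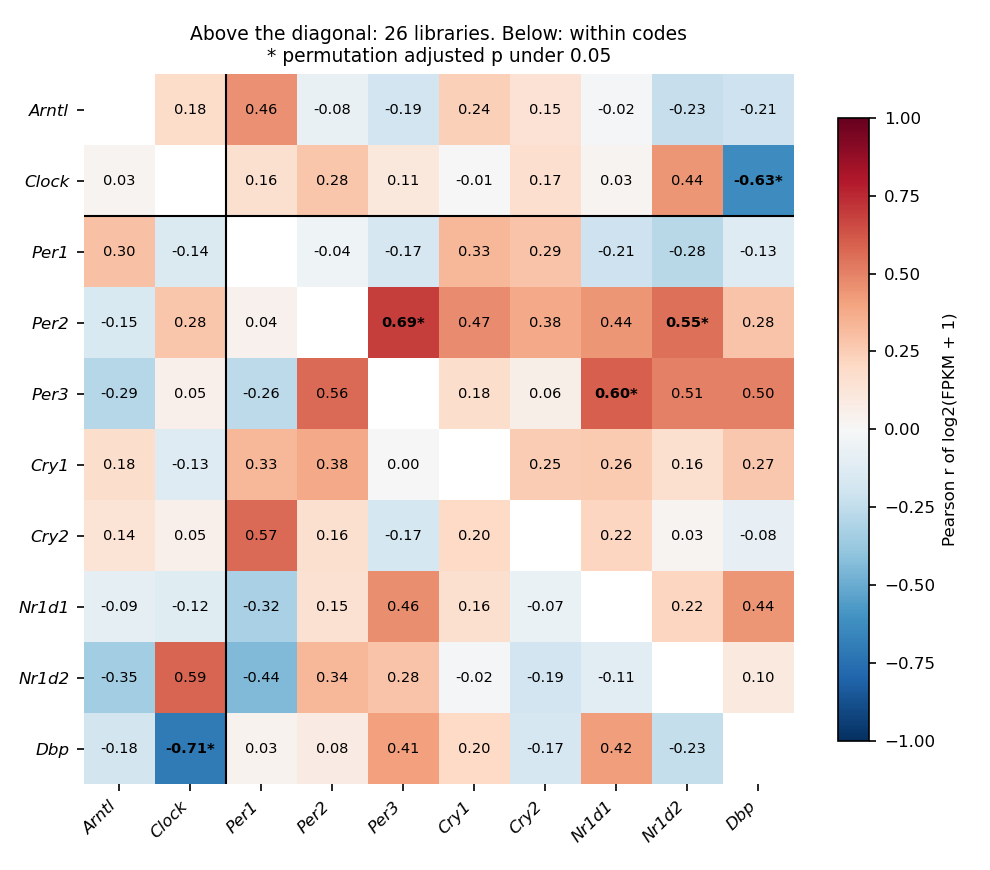
Pearson r of log2(FPKM + 1) for each pair of members, over 26 libraries above the diagonal and on deviations from code means below it; black lines part the positive limb from the rest, and stars mark a permutation adjusted p under 0.05. Clock with Dbp, at -0.63 and -0.71, is the starred pair between the limbs, and Per2 with Per3, at 0.69, is the highest value.

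The pair that passed between the limbs was Clock and Dbp, with r = -0.63 (rho = -0.48, permutation adjusted p = 0.0128 and 0.0909). Within codes r was -0.71 (permutation adjusted p = 0.0072). It was -0.35 without OS 5 and ON 2, so much of it rests on those libraries, which had the highest Clock and the lowest Dbp. Without the 4 libraries that stand apart it was -0.59 (permutation adjusted p = 0.0533). Arntl with Dbp, given above, had the same sign and did not pass, and the difference between both correlations was not tested. Arntl and Clock had r = 0.18 (rho = 0.17, permutation adjusted p = 0.595 and 0.600). Clock was lower and Dbp higher where ribosomal protein genes took more reads (r = -0.71 and 0.45 over 26 libraries), and the part of that share in the pair was not tested. Arntl and Per1 pointed the other way, at r = 0.46 (rho = 0.55, permutation adjusted p = 0.101 and 0.0404), 0.43 without OS 2 and ON 1, and 0.30 within codes, where it did not pass (0.552).

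Among the 8 genes of the negative limb and its outputs, 22 of 28 pairs had r above 0 and 3 passed, all positive. Per2 and Per3 had r = 0.69 (rho = 0.69, permutation adjusted p = 0.00495 and 0.0072), 0.65 without CT 4 and MM 5, and 0.56 within codes (0.0749). Per3 and Nr1d1 had r = 0.60 (rho = 0.65, permutation adjusted p = 0.0163 and 0.0103), 0.64 without ON 5 and MM 4, and 0.46 within codes (0.236). This pair was at 0.45 without the 4 libraries that stand apart, where it did not pass (0.158). Per3 and Nr1d1 were both higher where red pulp macrophage markers were higher (r = 0.55 for each over 26 libraries). The part of these markers in the pair was not tested. Per2 and Nr1d2 had r = 0.55 (rho = 0.48, permutation adjusted p = 0.0416 and 0.0909), 0.59 without CT 4 and MM 5, and 0.34 within codes (0.469). None of the 28 pairs passed within codes. Per3, whose window holds both D-boxes printed above, had r = 0.50 with Dbp (rho = 0.58, permutation adjusted p = 0.0655 and 0.0403), 0.58 without ON 5 and MM 4, and 0.41 within codes (0.469). Without the 4 libraries that stand apart it was 0.30, and within codes it then turned to -0.13 (0.910), so no direction is given. Per1 with the other 7 genes gave r from -0.28 (Nr1d2) to 0.33 (Cry1), and none passed.

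**Figure D4:**
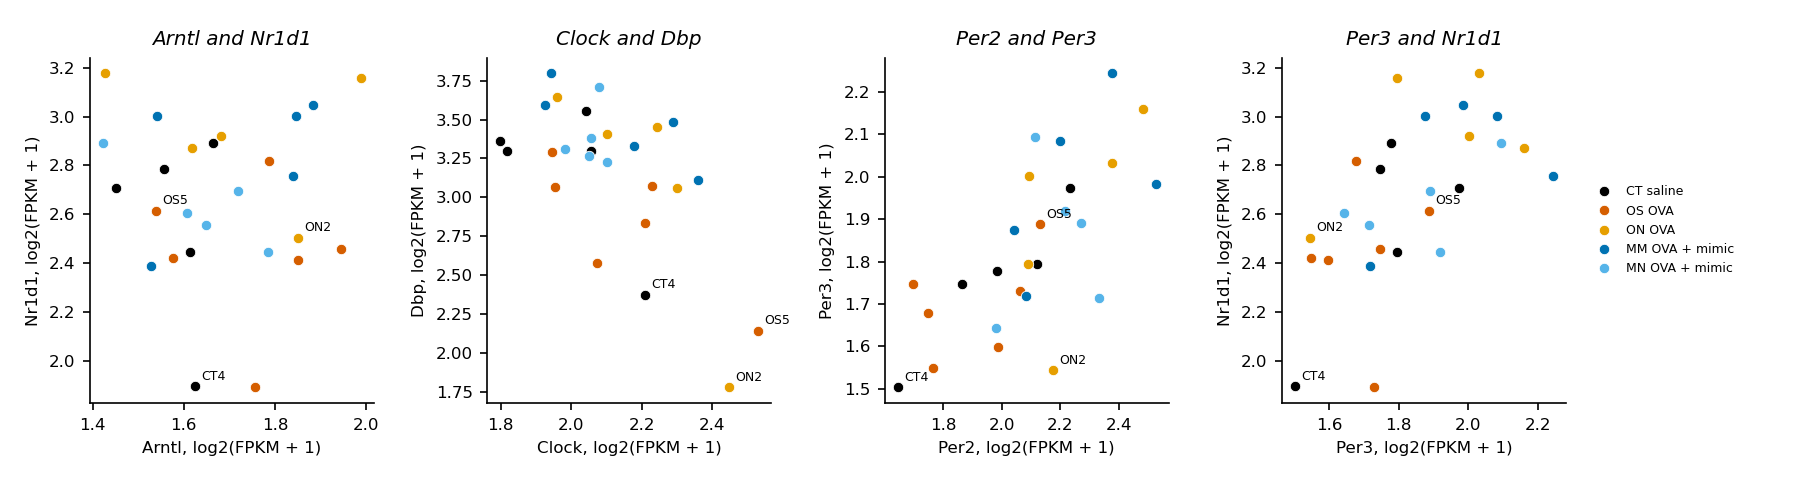
Levels of 4 pairs of members in 26 libraries, each axis log2(FPKM + 1), dots coloured by code; CT 4, ON 2 and OS 5 are named. Arntl and Nr1d1 show no slope (r = -0.02), Dbp is lower where Clock is higher (r = -0.63) with OS 5 and ON 2 at the far end, and Per3 is higher where Per2 (r = 0.69) and Nr1d1 (r = 0.60) are higher.

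The log2 ratio of Arntl over Nr1d1 FPKM, averaged -1.27 ± 0.54 (SD, n = 5) in saline, -0.91 ± 0.47 (n = 6) in OS, -1.54 ± 0.50 (n = 5) in ON, -1.41 ± 0.29 (n = 5) in MM and -1.31 ± 0.39 (n = 5) in MN. It was below 0 in all 26 libraries, so Nr1d1 exceeded Arntl throughout. It ran from -1.43 to -0.18 in OS and from -2.25 to -0.84 in ON, and the ranges of all 5 codes overlapped.

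Other clock-linked genes were read from lists. Of 6 further repressors and PAR bZIP factors, all tested, 2 rose in OS against saline and 0 fell, with a median log2 difference of 0.33 beside 0.00 over all genes. Bhlhe40 (DEC1, an E-box repressor that also responds to immune stimuli) rose from 8.94 ± 1.68 FPKM in saline to 25.0 ± 8.02 in OS, by 1.34 ± 0.24 (limma adjusted p = 0.00368). Nfil3 (E4BP4, the D-box repressor opposed to DBP) rose from 2.65 ± 0.42 to 10.5 ± 4.34, by 1.55 ± 0.34 (limma adjusted p = 0.0128). All 6 OS libraries were above the highest saline library for both, beside 2.35% of all genes without overlap in either direction, and both calls held in 26 of 26 leave-one-out fits. For Bhlhe40 all 5 MM libraries, at 10.7 to 20.8 FPKM, also lay above the highest saline library (10.5), beside 2% of all genes without overlap. MM against saline called 0 of the 6 genes. The highest Nfil3 value of the series was in ON 2, at 16.7 FPKM. Bhlhe40 also rose in OVA as a whole, by 0.80 ± 0.21 (limma adjusted p = 0.0479), a call that held in 6 of 26 such fits and ended without the 4 libraries that stand apart. The DBP relatives Tef and Hlf did not pass in OS, at -0.31 ± 0.13 and -0.20 ± 0.15 (limma adjusted p = 0.217 and 0.550). Without the same 4 libraries 3 of 6 passed in OS, where 5.46% of all genes did, with Tef lower, at -0.42 ± 0.12 (limma adjusted p = 0.0367) beside Bhlhe40 and Nfil3. In OS against ON 0 of 6 passed with all libraries and 2 of 6 without those 4, where 1.38% of all genes did. Of 5 other activators only Rora reached the filter, at 1.46 to 1.67 FPKM by code mean, and it passed nowhere.

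Of 5 clock output genes 1 rose in OS against saline, Nampt, the rate-limiting enzyme of NAD salvage, from 13.7 ± 1.38 to 19.1 ± 3.44 FPKM, by 0.43 ± 0.11 (limma adjusted p = 0.0278). That call ended without any one of CT 2, CT 3 or OS 2 to OS 4 (0.0122 to 0.0894 over all leave-one-out fits). Without the 4 libraries that stand apart Nampt passed at 0.46 ± 0.10 (limma adjusted p = 0.0141). The median log2 difference of the outputs in OS was 0.12. Of 10 regulators of PER and CRY protein stability 9 were tested, with a median log2 difference of 0.05 in OS against saline. Csnk1a1, a kinase of the PER proteins, did not pass in OS with all libraries, at 0.17 ± 0.08 (limma adjusted p = 0.274), and passed without those 4, at 0.25 ± 0.07 (0.0384).

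**Figure D5:**
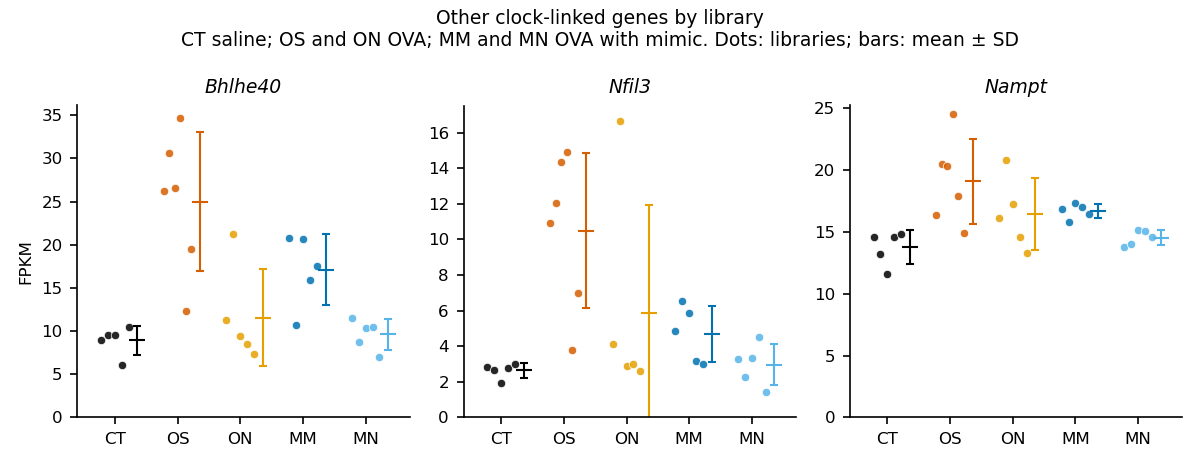
FPKM of Bhlhe40, Nfil3 and Nampt in each library, by code; dots are libraries and bars the mean ± SD, with the Nfil3 bar of ON cut at 0. OS has the highest mean in all 3 panels, with Bhlhe40 at 12.3 to 34.7 and Nfil3 at 3.77 to 14.9.

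Per1 answers to the glucocorticoid receptor and to CREB and serum response signals, and genes of both kinds were read beside it. Some of these lists' genes were known from earlier work on these libraries to be higher in OS, so their counts are not independent evidence. In OS against saline, where 2.99% of all genes passed, 9 of 13 CREB and serum response genes rose (median log2 difference 1.67), among them Atf3 by 2.72 ± 0.53 and Nr4a2 by 1.40 ± 0.25 (limma adjusted p = 0.00544 and 0.00302), and 2 of 11 tested glucocorticoid-induced genes rose (median 0.98), Errfi1 by 1.93 ± 0.30 and Pdk4 by 0.99 ± 0.21 (limma adjusted p = 0.000921 and 0.0104). In MM against saline, with 0.3% of all genes, 0 of 13 and 2 of 11 passed, with medians of 1.28 and 0.62, and limma adjusted p for Errfi1 was 0.014. In OVA against saline, with 2.17% of all genes, 2 of 13 and 3 of 11 passed. Without the 4 libraries that stand apart the counts were 9 of 13 and 4 of 11 in OS, 0 of 13 and 1 of 11 in MM, and 0 of 13 and 1 of 11 in OVA, where 5.46%, 0.428% and 0.83% of all genes passed. Without only the 3 libraries with pancreatic reads, 9 of 13 and 6 of 11 passed in OS. In that setting 0 of 13 and 2 of 11 passed in MM, and the same in OVA. The share of all genes in that setting is not given here. In OS against saline 8 of the 11 tested glucocorticoid-induced genes had a log2 difference above 0 and 3 below. Fkbp5, a gene of this list named after its values were seen, stood at 8.05 ± 2.15 FPKM in saline and 6.71 ± 1.39 in OS. As 1 gene picked from 11, it does not stand for the list. Whether either signal plays a part in Per1 was not tested.

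Per1 and the mean of each list were set side by side in each library. Relative to the saline mean on the log2 scale, OS 1 to OS 4 had Per1 at 1.59 to 2.10, the glucocorticoid list at 0.89 to 1.04 and the CREB and serum response list at 1.85 to 2.59. OS 5 was low on all 3, at 0.26, 0.14 and 0.22. OS 6 parted them, with Per1 at 0.51, glucocorticoid genes at 0.32 and CREB and serum response genes at 1.85. ON 2, the library with most pancreas reads, had 1.50, 1.27 and 1.24, while the other 4 ON libraries had the CREB and serum response list below 0. CT 4 was low on all 3, at -0.65, -0.88 and -1.08.

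Among the genes whose levels were most like those of Arntl over 26 libraries, of 15672 tested, were Afap1l2 (r = 0.65), Zfp827, Mir132 and Pdlim3 (r = 0.63), and the least alike were Kctd14 (r = -0.69), Rit1, Mettl7a1, Tpd52l2 and Clec4b1 (r = -0.57). Those most like Nr1d1 were Slc40a1 (r = 0.80), the iron exporter ferroportin, Hfe, Tmem129, Zfp664 and Dusp7 (r = 0.78), and the least alike Hnrnph2 (r = -0.81), Zscan21, Zfp512, Prps1 and Chchd7 (r = -0.74). The 10 members were left out of this ranking, and the r are the extremes of many. Mir132 ran from 0 to 3.54 FPKM over the 26 libraries, a range that reaches the floor. Nr1d1 was also higher where red pulp macrophage markers were higher (r = 0.55), as were Per3 (0.55) and Dbp (0.54). All 5 of these markers were present in every library with a summed FPKM of 384 to 723, and their part was not tested.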

How the data were processed

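Poly(A)-selected RNA of 26 spleen libraries was measured. The authors deposited FPKM per gene with a gene length. Per the submitters' processing notes the tools were featureCounts 1.5.0-p3, HISAT2 2.0.5, edgeR 3.24.3, CASAVA, DESeq2 1.20.0 and StringTie 1.3.3b, with no role stated. The sources used here name no build, and 2.97% of 52135 gene IDs shared with GRCm38 have its coordinates, so table positions and RefSeq windows are on different builds. Times the gene length, 100% of values were whole multiples of 1 step per library (tolerance 0.05), which gave reads of 14224832 to 18113989 per library. Their number limits precision, and this covers counting error only.

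The filter, an FPKM of 1 or more in 5 or more libraries, left 15672 genes. limma 3.58.1 in R 4.3.3 fitted 1 mean per code to log2(FPKM + 1) with a variance trend. Benjamini-Hochberg adjustment was made separately for the 9 comparisons and the F test, at a threshold of 0.05. A fold on this scale understates the change of low genes. Pairs were tested by permutation in Python 3.11.15 (numpy 2.4.6). Fits and permutations were tested on simulated data. Genes outside the members were named if they passed, or else by the 2 smallest p over the codes; Fkbp5, Tef and Hlf were named after their values were seen. Members and all 18 lists (111 genes, each matched once) were chosen with earlier results of these data known. Alternatives were centring, pseudocount, filter, array weights, replicate block, voom on recovered reads, fewer libraries and other fits. Every per-sample column was used. Of the genes these rules name, some are not reported here.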

Additional observations from a re-analysis of the deposited data

Results flagged for a closer look

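In 3 of 50 sets of libraries (10 members in 5 codes) a single library lay far from the others, where chance gives about 1 in 20. Per1 in CT 4 was 8.13 FPKM, with the next saline library at 14.1, and CT 4 is also the library with 6.62% mitochondrial reads. Cry1 in MN 5 was 4.92 FPKM, with the next MN library at 5.57. Cry2 in MN 2 was 2.60 FPKM, with the next MN library at 3.08.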

How the results depend on the processing

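Of the members, Per1 kept its direction in every comparison and alternative run. In OVA against saline, 1 member passed, and 0 did with no filter, without the 3 libraries with pancreatic reads, without the 4 libraries that stand apart (chosen after seeing the data), in a fit to only the groups compared or with 1 mean per treatment. In OS against saline 1 passed, and 0 in the fit to only the groups compared. Array weights gave 3 in OS against ON (Per1, Per2, Nr1d1), 2 in MM against saline (Per1, Nr1d2) and 3 over the 5 codes (Per1, Per2, Nr1d2), where no filter gave 0. Leaving out 1 library gave 0 to 1 in OVA against saline, 1 to 1 in OS against saline and 0 to 2 over the 5 codes. With the label number as a replicate block, Per1 in OS was 1.52 and in OVA 1.10 and passed in both. Same-numbered libraries had r of deviations from -0.39 to 0.36, with 9 of 50 pairs over 0.1. Libraries of different numbers were not compared, so these values cannot say whether the numbers pair libraries. Of 90 member differences, 20 changed sign somewhere, and 0 of these passed in any setting.

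Pairs across the limbs passing below 0 went from 1 to 0 with Spearman rho, with recovered reads scaled by their total, without the 4 libraries and without OS 5 (0 to 1 over single libraries left out). Pairs within the negative limb and outputs went from 3 to 0 within codes and to 17 with scaled reads (2 to 5 over single libraries left out). The r of Arntl with Nr1d1 turned to 0.30 with scaled reads, 0.17 without the 3 and 0.14 without the 4 libraries, and ranged from -0.16 to 0.094 without single libraries. That of Arntl with Dbp turned to 0.24 with scaled reads. The library size behind the FPKM was 0.712 to 1.12 times the recovered reads, by library, so the scalings differ. Whether this or another cause lies behind the shifts was not tested.

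Over all genes, calls ranged from 87 (1 mean per treatment) to 1435 (array weights) in OVA against saline, main 340, from 108 to 1353 in OS against saline, main 469, from 8 to 859 in ON, main 80, and from 16 to 518 in MM, main 47. They ranged from 0 to 564 in OS against ON, main 29, from 7 to 474 in MM against MN, main 27, and from 207 to 1903 over the codes, main 340. Array weights gave 36 in each comparison of OVA with mimic with saline and with OVA, main 0.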
